A study of Drosophila melanogaster with 11 samples.

Results

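In the larval fat body of Drosophila melanogaster, 130 of the 13931 genes in the count table were close to absent in at least 1 of 5 strains and clearly present in another. A gene became a member of this set when its lowest strain mean was below 0.5 CPM (counts per 1000000 counts of the library) and its highest strain mean was at least 5 CPM. Of the 163 genes past both limits, 2 were left out because they lie on chromosome 4 and 31 because of their symbols. The symbols left out belong to families such as cytochrome P450s, heat shock proteins and antimicrobial peptides, or to single genes listed by name, such as DAT. A strain is called expressing for a member when its mean was at least 0.5 CPM and silent when it was below. Members were thus selected on their strain mean CPM, so the differences among strains given for them are descriptions without tests.

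The libraries came from 5 isofemale strains, MU10, MU12, MU14, MU17 and MU26, founded from a population sampled in Germany. An isofemale strain descends from 1 wild-caught female. How far each strain was inbred is not stated, so its larvae may differ in genotype. All 11 libraries were made from polyadenylated RNA of fat bodies dissected from female larvae in the late wandering part of the third instar, after growth at controlled density. MU14 has 3 libraries and each other strain has 2, described as biological replicates, each made from a pool of fat bodies, and the labels name no treatment.

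The larval fat body stores fat, glycogen and protein, secretes haemolymph proteins and antimicrobial peptides, and carries out much of the detoxification of the larva, in the manner of a liver and adipose tissue combined. Genes of neurons, gut or other organs are normally kept at low levels in it. Strains of 1 species can carry different regulatory variants, insertions and deletions at a gene, so a transcript can be abundant in one strain and undetected in another. In a bulk sample, fewer cells that express a gene and less RNA of that gene per cell cannot be told apart.

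The libraries held 34631482 to 49582725 counts (median 38321327), and 10591 to 11871 genes had at least 1 count. At this depth 0.5 CPM stands for 17.3 counts in the smallest library and 24.8 in the largest. The fat body markers (storage proteins, their receptor, a perilipin and the lipoprotein precursor) summed to 319154 to 396974 CPM per library, in accord with the tissue label. Of the other 12 marker lists, haemocyte markers summed to 31.5 to 34.7 CPM in MU26 and 56.4 to 158 CPM elsewhere, muscle markers to 92.3 to 105 CPM in MU17 and 20.3 to 41.9 CPM elsewhere, and salivary gland markers to 53.6 to 167 CPM in MU17 and 3.58 to 106 CPM elsewhere. Midgut markers stayed between 0.413 and 4.56 CPM. Of the muscle mean of 98.5 CPM in MU17, bt held 76.3 CPM. Epidermis and cuticle markers, mostly Cpr49Ac, summed to 2936 to 8273 CPM, and Malpighian tubule markers, mostly Oat, to 939 to 2978 CPM. The mean sum of testis markers was 40.1 CPM in MU26 and 7.80 to 26.3 CPM in the other strains. Nearly all of it was Mst87F (39.3 CPM in MU26), and each other testis marker had a mean of at most 0.499 CPM in every strain. That of female germ line markers was 19.1 CPM in MU14 and 4.85 to 7.53 CPM in the others. The part of these other cell types in the results was not tested. Composition factors of the trimmed mean of M values ran between 0.833 and 1.16, lowest in both MU26 libraries.

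Members silent in a single strain were the largest group. There were 28 members expressed in 1 strain, 14 expressed in 2 strains, 20 expressed in 3 strains and 68 expressed in 4 strains. Without replicate 1 of MU17, 9 members rather than 14 were expressed in 2 strains. At the stricter level of 5 CPM, 95 members reached the level in 1 strain, 16 in 2 strains, 7 in 3 strains and 12 in 4 strains. Many members counted as expressed in 4 strains were therefore high in 1 of them and between 0.5 and 5 CPM in the others.

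MU26 was silent for 91 members (70.0%), MU10 for 52, MU14 for 49, MU12 for 38 and MU17 for 32. Of the 68 members silent in a single strain, 37 were silent in MU26, 11 in MU10, 10 in MU17 and 5 each in MU12 and MU14. The share in MU26, 54.4%, stands beside 48.8% of all 342 genes of the table that were below 0.5 CPM in a single strain. The highest strain was MU17 for 50 members, MU12 for 33, MU10 for 21, MU14 for 19 and MU26 for 7. Of the 28 members expressed in a single strain, 11 were expressed in MU17 (39.3%), against 46.2% of all 483 genes of the table that reached 0.5 CPM in 1 strain. MU12 had 8 such members, MU14 had 4, MU10 had 3 and MU26 had 2. Summed over all members, the libraries of MU17 held 1543 and 3329 CPM, those of MU12 1833 and 2362 CPM and those of MU26 335 and 345 CPM. The MU14 libraries held 1219 to 1373 CPM and the MU10 libraries 903 and 1044 CPM.

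**Figure D1:**
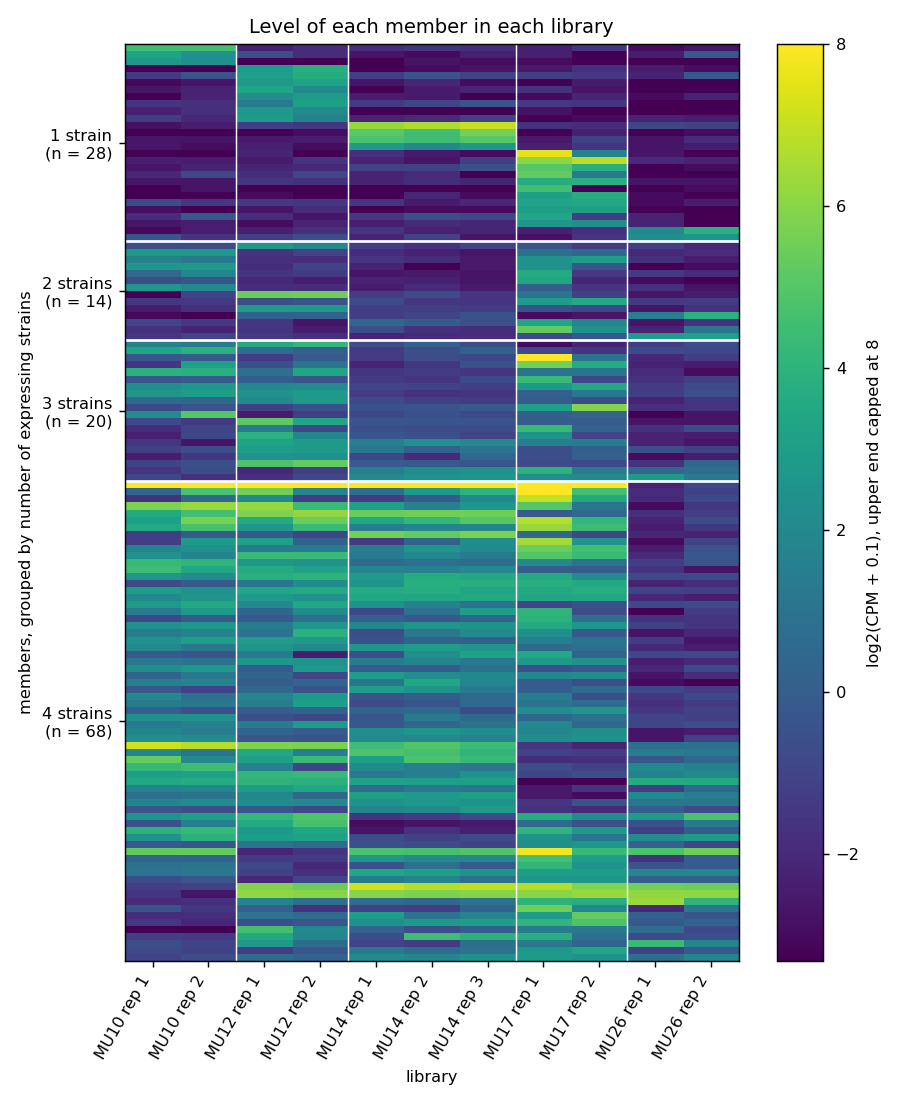
Heat map of log2(CPM + 0.1) for the 130 members (rows) in the 11 libraries (columns), with white lines between strains and between the members expressed in 1, 2, 3 and 4 strains. Dark cells are silent libraries, and the largest block of dark cells within the 68 members expressed in 4 strains lies in the 2 MU26 columns.

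**Figure D2:**
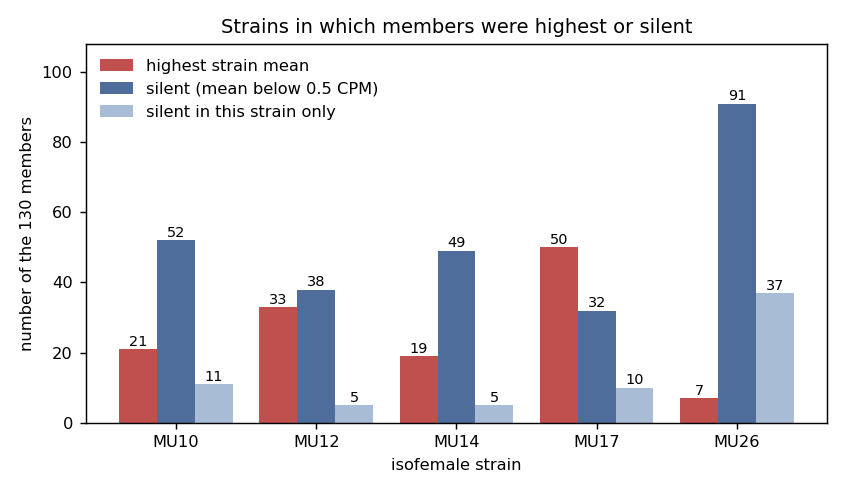
Number of the 130 members (vertical axis) for which each strain (horizontal axis) had the highest mean, was silent, or was the single silent strain. MU17 had the highest mean for 50 members and MU26 was silent for 91.

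Silent strains often held few counts or none. The lowest strain mean had a median of 0.151 CPM and was below 0.1 CPM in 46 members, and 14 members had no count at all in every library of a strain. Over the 262 combinations of a member and a silent strain, the libraries of the strain together held a median of 14 counts, 41 combinations held 0 to 3 counts, and the highest held 56. The highest strain mean had a median of 10.02 CPM, reached 50 CPM in 14 members and 100 CPM in 6.

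For 65 members every library fell on the side of its strain, at or above 0.5 CPM in expressing strains and below it in silent strains. The same held for 380 of the 1403 genes of the table with strain means on both sides of 0.5 CPM (27.1%), and the member rule sets much of that contrast, so nothing is read from it. The 65 comprised 20 of the 28 members expressed in 1 strain, 4 of the 14 in 2 strains, 4 of the 20 in 3 strains and 37 of the 68 in 4 strains. The libraries of expressing and silent strains did not overlap for 101 members. The limits of the rule favour this, and the share over all genes was not computed, so nothing is read from it. A gap of at least 10-fold lay between the lowest expressing and the highest silent strain mean for 56 members. These include all 28 expressed in 1 strain, for which the limits of the rule fix such a gap, and 28 of the others. For 23 members that gap was under 2-fold, so the border at 0.5 CPM passed through a graded series of strain levels.

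Just inside the limit for absence, CG5646 had a lowest mean of 0.494 CPM and CG33301 one of 0.489 CPM, while CG33093 at 0.502 CPM and CG17167 at 0.504 CPM lay just outside. Just inside the limit for presence, blanks had a highest mean of 5.01 CPM and CG8620 one of 5.03 CPM, while 5-HT1B at 4.92 CPM and Tehao at 4.81 CPM lay just outside.

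In edgeR's quasi-likelihood test across the 5 strains, all 130 members passed the filter on low counts and 125 were called at a false discovery rate of 0.05, beside 48.3% of the 8415 genes tested. Nothing is read from this count, since the same strain means chose the members. The 5 members not called were Dso2, CG6006, CG43153, PGRP-SC1a and bw. In each of them the libraries of the highest strain differed by more than 4-fold.

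Among members expressed in a single strain, frac (faulty attraction) had the highest level. It lies on chromosome 3L at 7562610 to 7569499. The MU14 libraries held 72.7, 97.9 and 129 CPM (99.7 ± 28.0, SD, n = 3), against 0.0403 to 0.413 CPM in the 8 libraries of the other strains. CG43133 (chromosome X, 18129585 to 18130178) held 34.0, 23.0 and 49.1 CPM in MU14, against 0 counts in 5 of the other 8 libraries and at most 0.0986 CPM in the rest. CG4945 (chromosome 2R, 16566023 to 16570120) held 26.7, 22.1 and 33.6 CPM in MU14, against 0.0550 to 0.370 CPM elsewhere. All 3 MU14 libraries were far above every other library for these genes, with no overlap. The exons of CG4945 overlap those of the ribosomal protein gene RpS15 on the opposite strand, and the sources used here do not say that counting used strand.

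MU17 alone expressed PsGEF (chromosome X, 2367121 to 2387664). Its MU17 libraries held 66.2 and 114 CPM, against 0.0522 to 0.326 CPM in the 9 libraries of the other strains. The gene fipi, a member of the immunoglobulin superfamily, held 12.9 and 14.4 CPM in MU17, against 0.0550 to 0.226 CPM elsewhere. For sac the MU17 libraries held 7.77 and 8.65 CPM, against 0 to 0.168 CPM elsewhere. Nckx30C, a calcium and potassium-dependent sodium exchanger first studied in photoreceptors, held 9.56 and 10.7 CPM in MU17, against 0.0275 to 0.504 CPM elsewhere. In tbc the MU17 libraries held 32.4 and 13.6 CPM, against 0 to 0.577 CPM elsewhere. Both MU17 libraries stood above all others for these 5 genes.

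MU12 alone expressed the neighbours CG7329 and CG31872 on chromosome 2L. CG7329 held 6.96 and 9.70 CPM in MU12, against 0 to 0.130 CPM elsewhere, and CG31872 held 8.16 and 12.7 CPM in MU12, against 0.110 to 0.780 CPM elsewhere. CG17390, for which the annotation used here gave no position, held 7.46 and 13.7 CPM in MU12, against 0 to 0.197 CPM elsewhere. The MU12 libraries of Tsp42Eg, a tetraspanin, differed more, at 2.49 and 8.44 CPM, against 0 to 0.677 CPM elsewhere. The 4 genes shared a pattern of MU12 libraries above all others.

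MU10 alone expressed CG10738, CG6168 and LysX. CG10738 held 23.9 and 25.4 CPM in MU10, against 0.0275 to 0.246 CPM elsewhere. CG6168 held 6.90 and 4.98 CPM in MU10, against 0 to 0.0522 CPM elsewhere, with 0 counts in both MU12 and both MU26 libraries. LysX, a lysozyme gene of a family known from the midgut, held 9.28 and 5.20 CPM in MU10, against 0 to 0.780 CPM elsewhere. In MU26, the 2 genes expressed there alone were CG15894, at 3.91 and 14.8 CPM against 0.0202 to 0.223 CPM elsewhere, and dunk, at 4.95 and 5.63 CPM against 0.0484 to 0.706 CPM elsewhere. None of these 5 genes overlapped between the expressing strain and the rest.

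The most abundant member per kilobase was the reverse case, a gene off in a single strain. CG3397 (chromosome 3R, 11983098 to 11984541) reached 992 CPM per kilobase in MU12. Its libraries held 253 and 278 CPM in MU10, 1423 and 930 CPM in MU12, 619, 427 and 354 CPM in MU14 and 614 and 687 CPM in MU17, against 0.110 and 0.433 CPM in MU26. Expressing strains therefore differed among themselves by several-fold, while every MU26 library lay below every other by more than 100-fold.

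RhoGAP1A (chromosome X, 127449 to 140340) was close to even among the strains that express it. Its libraries held 67.6 and 63.0 CPM in MU12, 61.5, 54.1 and 59.4 CPM in MU14, 63.4 and 76.3 CPM in MU17 and 72.4 and 68.2 CPM in MU26, against 0.222 and 0.0559 CPM in MU10. RhoGAP1A shares exonic sequence on the same strand with tyn (trynity). CG31780 (chromosome 2L, 15696038 to 15697750) was also silent in MU10 alone, with 43.3 to 150 CPM in the 9 libraries of the expressing strains, against 0.323 and 0.364 CPM in MU10. Thus MU10 lacked a pair of transcripts that the other 4 strains held at 43.3 CPM or more.

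Silence in MU17 alone was seen for CG30428 and meep. CG30428 (chromosome 2R, 25251927 to 25254535) held 8.38 to 16.5 CPM in the 9 libraries of the other strains, against 0 counts in both MU17 libraries, where a floor of 3 counts over the strain stands for 0.0366 CPM. Taken at that floor, MU12 was at least 421-fold higher than MU17. In meep the levels were graded among expressing strains, at 145 and 109 CPM in MU10, 56.8 and 52.6 CPM in MU12, 22.6, 30.6 and 21.9 CPM in MU14 and 1.71 and 1.85 CPM in MU26, against 0.242 and 0.123 CPM in MU17. CG30428 was thus close to even where present, and meep was not.

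Silence in MU12 alone was seen for the adjacent genes CG42566 and CG4250 on chromosome 2R, whose starts lie 1758 bases apart. CG4250 held 37.2 and 38.5 CPM in MU10, 26.6, 26.4 and 29.9 CPM in MU14, 226 and 20.6 CPM in MU17 and 27.2 and 44.9 CPM in MU26, against 0.126 and 0.224 CPM in MU12. CG42566 held 1.92 to 10.6 CPM in the 9 libraries of the expressing strains, against 0.352 and 0.196 CPM in MU12. Neither gene overlapped between expressing and silent libraries.

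**Figure D3:**
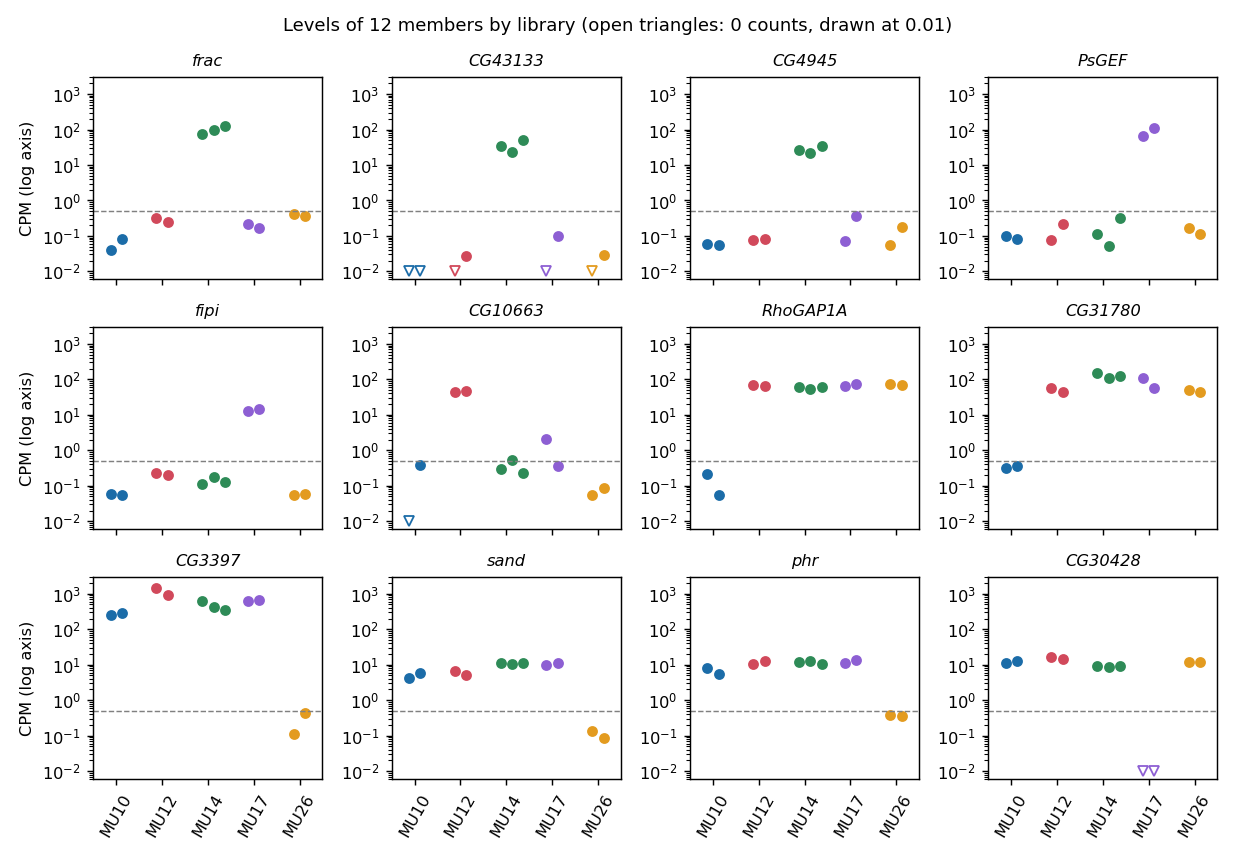
CPM on a log axis in each library for 12 members, with strains along the horizontal axis, a dashed line at 0.5 CPM and open triangles for libraries with 0 counts. Read row by row, the first 6 panels show members high in 1 strain (MU14 for frac, CG43133 and CG4945, MU17 for PsGEF and fipi, MU12 for CG10663). The last 6 show members silent in 1 strain, such as CG3397 with 0.110 and 0.433 CPM in MU26.

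CG10663, the highest of the members expressed in 2 strains, held 43.7 and 46.1 CPM in MU12 and 2.03 and 0.370 CPM in MU17, against 0 to 0.522 CPM in MU10, MU14 and MU26. Its level in MU17 overlapped that of the silent strains, so MU12 was its only clearly high strain. Its exons overlap those of CG10616 on the opposite strand. CG15543 held 0.460 and 0.764 CPM in MU17 and 7.51 and 8.75 CPM in MU26, against 0.111 to 0.420 CPM in the other strains. CG33468 held 7.31 and 6.85 CPM in MU12 and 0.629 and 0.444 CPM in MU17, against 0.0550 to 0.339 CPM in the others. In all 3 genes the second expressing strain lay within a few-fold of the limit.

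Of the 130 members, 47 carry a gene name rather than a CG number, and 38 of these have a role that could be stated, in 6 groups formed after their values were seen. The largest, with 11 members, holds genes known from neurons. MU26 was silent for 10 of these 11, and MU17 was the highest strain for 6, beside 91 and 50 of all 130 members. Nothing particular to this group is read from these counts. Shawl, a voltage-gated potassium channel, held 3.05 and 2.29 CPM in MU10 and 5.40 and 7.79 CPM in MU17, against 0.0752 to 0.223 CPM in the other strains. The libraries of the 2 expressing strains all lay above the rest.

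The leak potassium channel gene sand (sandman), known from sleep control in the fly brain, held 4.20 to 11.3 CPM in the 9 libraries of MU10, MU12, MU14 and MU17, against 0.138 and 0.0866 CPM in MU26. Its exons overlap those of uno on the opposite strand. The gap junction gene shakB held 0.553 and 0.671 CPM in MU12 and 7.52 and 12.2 CPM in MU17, against 0.226 to 0.501 CPM elsewhere. The acetylcholine receptor subunit gene nAChRalpha6 held 4.60 and 5.84 CPM in MU17 and 0.527 to 1.30 CPM in MU10, MU12 and MU14, against 0.248 and 0.375 CPM in MU26. In shakB and nAChRalpha6, MU17 alone reached a mean of 5 CPM, and the other expressing strains lay near 0.5 CPM.

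The glutamate receptor genes Grik and clumsy, both of the kainate type, had different silent strains. Grik held 5.89 and 4.22 CPM in MU10 and 0.992 and 0.222 CPM in MU17, against 0.0578 to 0.193 CPM in MU12, MU14 and MU26. Its levels in MU10 stood well apart from all other libraries. By contrast clumsy held 7.36 and 10.9 CPM in MU12 and 0.303 to 3.58 CPM in MU10, MU14 and MU26, against 0.0726 and 0.222 CPM in MU17. The cell-surface immunoglobulin gene dpr12 held 4.62 and 32.3 CPM in MU10 and 0.445 to 1.21 CPM in MU14 and MU17, against 0 to 0.335 CPM in MU12 and MU26. The MU10 libraries of dpr12 differed by 7-fold and were both above all others.

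Rbp9, an RNA-binding protein of the ELAV family, held 8.25 and 59.1 CPM in MU17, 0.444 and 0.643 CPM in MU10 and 0.612 to 0.828 CPM in MU14, against 0.377 and 0.615 CPM in MU12 and 0.193 and 0.231 CPM in MU26. MU12 overlapped MU10 and MU14, and the exons of Rbp9 overlap those of Ts (thymidylate synthase) on the opposite strand. The last of the 11, side-III, another cell-surface immunoglobulin gene, held 8.06 and 6.76 CPM in MU12 and 0.556 to 2.20 CPM in MU14 and MU17, against 0.343 to 0.578 CPM in MU10 and MU26. Of the 6 nervous system markers, Syt1 made up most of the sum, at a strain mean of 452 CPM in MU26 and 551 to 642 CPM in the other strains. The mean of elav was 1.77 CPM in MU26 and 4.04 to 4.81 CPM elsewhere, that of para 1.01 CPM in MU26 and 1.12 to 1.85 CPM elsewhere, and that of brp 0.196 CPM in MU26 and 0.285 to 0.771 CPM elsewhere. These 4 were lowest in MU26. The means of nSyb and repo stayed at or below 0.198 CPM in every strain and were not lowest in MU26. The part of nervous tissue in these levels was not tested.

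The immune group had 5 members, all silent in MU26 and 4 of them highest in MU17, beside 70.0% and 38.5% of all members. The remaining member was LysX, given above, which MU10 alone expressed. Antimicrobial peptide families left out by symbol are not in the group. Dso2, which encodes a Daisho peptide induced through the Toll pathway, held 86.9 and 5.72 CPM in MU17 and 0.278 to 8.79 CPM in MU10, MU12 and MU14, against 0.0275 and 0.404 CPM in MU26. GNBP-like3, related to the recognition proteins for Gram-negative bacteria and fungi, held 123 and 11.5 CPM in MU17 and 0.202 to 3.99 CPM in MU10, MU12 and MU14, against 0.165 and 0.462 CPM in MU26. The C-type lectin gene lectin-24A held 15.7 and 1.68 CPM in MU17 and 0.444 to 1.70 CPM in MU10, MU12 and MU14, against 0.220 and 0.231 CPM in MU26. In each of the 3 genes replicate 1 of MU17 was far above its partner library, and the exons of lectin-24A overlap those of CG2818 on the opposite strand.

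PGRP-SC1a, an amidase that degrades peptidoglycan, held 11.5 and 1.11 CPM in MU17 and 0.0838 to 8.98 CPM in MU10, MU12 and MU14, against 0.440 and 0.491 CPM in MU26. It has a near-identical copy, PGRP-SC1b, which held 0.0280 to 3.92 CPM across the libraries. Since read pairs that mapped to more than 1 gene were discarded, the level of either copy is uncertain. Immune induction differed between libraries at large. The 18 genes of the immune-induced family that are no members summed to 14846 CPM in replicate 1 of MU17 and 3879 CPM in replicate 2, and to 836 to 3966 CPM in the other strains. The part of this difference in the levels of the members was not tested.

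Proteases formed a group of 4, with MU17 the highest strain for 3, as for 50 of all 130 members. Jon65Aii, a serine protease of the Jonah family known from the gut, held 23.1 CPM in 1 MU17 library and 0 counts in the other, against 0 to 0.0559 CPM elsewhere. Sp212 held 44.8 and 3.75 CPM in MU17 and 0.138 to 2.11 CPM in MU12, MU14 and MU26, against 0.666 and 0.252 CPM in MU10. Both genes thus depended on 1 library. The metalloprotease gene tld (tolloid), which cleaves the BMP inhibitor Sog in the embryo, held 4.94 and 6.38 CPM in MU10, 4.09 and 4.30 CPM in MU12 and 7.19 and 11.4 CPM in MU17, against 0.303 to 0.520 CPM in MU14 and MU26. Its 2 sides did not overlap. Nep4, a neprilysin-type peptidase, held 5.06 and 5.17 CPM in MU10 and 0.447 to 2.45 CPM in MU12, MU14 and MU17, against 0.413 and 0.347 CPM in MU26.

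The 4 matrix and adhesion members were all silent in MU26, as were 70.0% of all members. Ndg (nidogen), a basement membrane protein that links laminin and collagen networks, held 12.1 and 24.7 CPM in MU10, 56.4 and 72.7 CPM in MU12, 41.7, 46.0 and 45.3 CPM in MU14 and 0.847 and 1.36 CPM in MU17, against 0.193 and 0.318 CPM in MU26. The levels in MU17 were near the limit, so MU10, MU12 and MU14 stood apart from MU17 and MU26. The exons of Ndg overlap those of CG34222 on the opposite strand. PH4alphaPV, an alpha subunit of prolyl 4-hydroxylase, the enzyme that modifies collagen, held 186 and 3.25 CPM in MU17, against 0 to 0.195 CPM elsewhere, with 0 counts in both MU10 libraries. Both MU17 libraries exceeded all others, but they differed by 57.2-fold.

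The chitin-binding gene obst-J held 35.0 and 10.1 CPM in MU12 and 0.696 to 0.919 CPM in MU14 and MU17, against 0.0550 to 0.484 CPM in MU10 and MU26. The integrin alpha subunit gene ItgaPS4 held 0.577 to 1.22 CPM in MU14 and 10.3 and 3.65 CPM in MU17, against 0.0550 to 0.424 CPM in MU10, MU12 and MU26. In each of these genes 1 strain was high and the other expressing strains were near 1 CPM. The exons of ItgaPS4 overlap those of Trpm on the opposite strand.

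The 8 metabolism and transport members included the DNA repair gene phr, a photolyase that reverses damage by ultraviolet light. It held 5.37 to 13.3 CPM in the 9 libraries of MU10, MU12, MU14 and MU17, against 0.385 and 0.347 CPM in MU26, and its exons overlap those of the proteasome subunit gene Prosalpha1 on the opposite strand. The carboxylesterase gene alpha-Est4 held 4.34 to 16.4 CPM in the same strains, against 0.468 and 0.491 CPM in MU26. Acsf2, which by its name encodes an acyl-CoA synthetase, held 0.501 to 7.85 CPM in them, against 0.193 and 0.289 CPM in MU26. No MU26 library reached the lowest of the others in any of these 3 genes.

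MU10 was the silent strain for 3 members of this group. Zip89B, a metal ion transporter of the ZIP family, held 17.5 and 28.9 CPM in MU17, 5.01, 7.18 and 7.87 CPM in MU14 and 0.553 to 1.16 CPM in MU12 and MU26, against 0.262 and 0.140 CPM in MU10. The lysosomal sulfatase gene Ids held 1.06 to 7.06 CPM in the other 4 strains, against 0.383 and 0.531 CPM in MU10. The gene bw (brown), an ABC transporter for eye pigment precursors, held 0.468 to 22.0 CPM in the other 4 strains, against 0.323 and 0.308 CPM in MU10. Its 3 MU14 libraries ranged from 0.501 to 22.0 CPM, and its exons overlap those of mi on the opposite strand. Npc2h, of the family of sterol-binding NPC2 proteins, held 2.10 to 14.6 CPM in the other 4 strains, against 0.365 to 0.556 CPM in MU14. LManVI, of the lysosomal alpha-mannosidase family, held 12.01 and 17.9 CPM in MU12 and 0.552 to 3.25 CPM in MU10 and MU14, against 0.0242 to 0.520 CPM in MU17 and MU26.

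The 6 regulators, which include PsGEF and RhoGAP1A, were silent in MU10, MU12 and other strains without a common pattern. The C/EBP-type transcription factor gene slbo, known from border cell migration in the ovary, held 24.4 and 4.11 CPM in MU12 and 0.491 to 2.66 CPM in MU14, MU17 and MU26, against 0 counts in both MU10 libraries. The X-linked gene sisA, which counts X chromosomes in the sex determination of the embryo, held 6.39 and 6.69 CPM in MU10 and 5.15 and 0.739 CPM in MU17, against 0 to 0.391 CPM elsewhere. Pka-C3, a catalytic subunit of protein kinase A, held 6.31 and 6.33 CPM in MU17 and 0.504 to 3.29 CPM in MU10, MU14 and MU26, against 0.151 and 0.419 CPM in MU12. The RNA-binding gene blanks held 3.59, 4.07 and 7.37 CPM in MU14 and 0.447 to 0.936 CPM in MU10, MU12 and MU26, against 0.218 and 0.148 CPM in MU17.

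The remaining 9 named members were Tsp42Eg, frac, tbc, sac, dunk, Nost, meep, Eig71Ee and msb1l. Eig71Ee, induced by ecdysone and known from the salivary gland, held 7.67 and 38.8 CPM in MU17 and 0.635 to 8.12 CPM in MU12, MU14 and MU26, against 0.182 and 0.168 CPM in MU10. It is also 1 of the 7 salivary gland markers, and the sum of that list was lowest in MU10. The part of salivary gland tissue in its level was not tested.

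Replicates of the highest strain often disagreed. The 2 or 3 libraries of the highest strain differed by more than 2-fold for 52 members and by more than 4-fold for 33. Of the 50 members highest in MU17, 21 were more than 4-fold higher in replicate 1 than in replicate 2, 2 were more than 4-fold higher in replicate 2 (Rbp9 and Eig71Ee), and 22 lay within 2-fold. CG6788 held 453 and 1.92 CPM in the MU17 libraries, 0.686 and 0.755 CPM in MU10 and 0.301 and 0.866 CPM in MU12, against 0.138 to 0.548 CPM in MU14 and MU26. CG33462 held 351 and 23.5 CPM in MU17 and 1.21 to 46.0 CPM in MU10, MU12 and MU14, against 0.165 and 0.375 CPM in MU26. These levels rest largely on 1 library, and 16 of the 50 did not reach 5 CPM in replicate 2. Without replicate 1 of MU17, 112 of the 130 members met the rule. Over the 11 libraries left out in turn, 74 members met the rule every time and 56 were lost at least once.

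**Figure D4:**
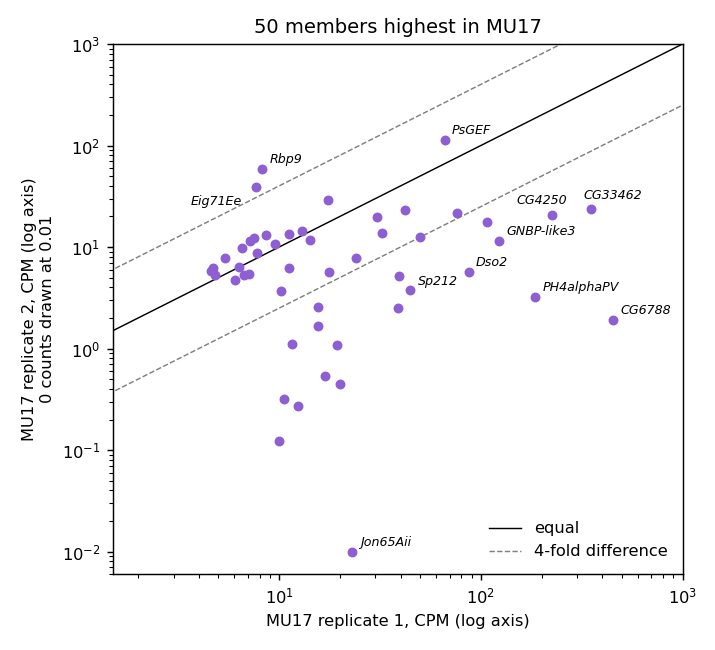
CPM in replicate 2 (vertical) against replicate 1 (horizontal) of MU17 for the 50 members highest in MU17, both on log axes, with a solid line of equal values and dashed lines at a 4-fold difference. Below the lower dashed line are 21 members, among them CG6788 at 453 and 1.92 CPM, while PsGEF at 66.2 and 114 CPM lies near the solid line.

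Length and position were not used by the rule. The median length of the members in the table was 1550.5 bases, against 1703 bases for the table and 2085 bases for the tested genes. Chromosome arm 2R held 35 members (26.9%), against 20.4% of the table, and 3R held 24 (18.5%), against 24.5% of the table. Arm 2L held 29 members, 3L held 26 and X held 16. A CG number in place of a gene name was carried by 83 of the 130 members (63.8%), against 43.5% of the table, but the rule left out 31 genes by symbol, most of them in named families, so nothing is read from this share. The other shares are descriptions.

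Few members were direct neighbours. The annotation held 4 pairs of consecutive members, CG42566 with CG4250, Nckx30C with CG13116, CG7329 with CG31872 and CG30087 with CG33460. The partners shared at least 1 silent strain in all 4 pairs and the whole set of silent strains in 2. When members whose starts lie within 10 kb of each other were joined, 7 clusters held 16 members. At least 1 silent strain was common to all members in 6 of the 7 clusters, and no cluster had the same silent strains throughout. One cluster on chromosome 2R joined CG30087, CG33460 and CG33462, all highest in MU17 and all silent in MU26. Another on 2R joined CG13510, silent in MU26, with CG42566 and CG4250, both silent in MU12. Exons of 34 members overlapped those of another annotated gene, which was protein-coding for 24.

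The genes flanking the members are no members themselves, although DAT and Cpr31A passed both limits and were left out by symbol. For each member the nearest tested gene on each side that is no member was compared between the strains that express the member and those silent for it, with edgeR's quasi-likelihood test. Of 256 pairs of a member and a flanking gene (238 different genes), 58 were called higher where the member was expressed (22.7%, against 10.5% of all tested genes in the same contrasts) and 34 were called lower (13.3%, against 10.5%). With the next gene in place of DAT and Cpr31A, 57 were higher and 34 lower. Of the 58, 15 averaged fewer than 15 counts in the silent strains, and 1 of the 34 averaged fewer than 15 counts in the expressing strains. Such genes reached the filter on low counts through the side where they were high, so their calls support nothing. Among the 175 pairs whose flanking gene averaged at least 100 counts over all libraries, a limit chosen after seeing the data, 41 were higher (23.4%, against 10.55% of tested genes above that limit) and 28 lower (16.0%, against 11.6%). That mean is taken over all libraries, so a gene high on 1 side only can still pass. The median log2 difference was 0.15 for flanking genes and 0.00 for all tested genes. Leaving out 1 library at a time gave 41 to 58 higher and 20 to 32 lower, and 20 lower (7.81%, against 8.11% of all tested genes) without replicate 2 of MU26.

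The calls were also counted by distance. Of the 132 flanking genes that start within 10 kb of the member, 40 were called higher (30.3%, against 10.8% of all tested genes) and 16 lower (12.1%, against 10.7%). Of the 124 that start farther away, 18 were higher and 18 lower (14.5% each, against 10.3% in each direction). The count of higher calls beyond 10 kb was 11 without replicate 2 of MU10, and that of lower calls was 9 without replicate 2 of MU26, 10 without replicate 1 of MU17 and 11 without either MU10 library. Within 10 kb, leaving out 1 library gave 30 to 39 higher and 11 to 17 lower. Flanking genes whose bodies do not overlap the member were called higher in 48 of 228 pairs (21.1%, against 10.6%) and lower in 32 (14.0%, against 10.6%), with 19 lower without replicate 2 of MU26. These counts still hold calls on genes that reached the filter on low counts through their high side, such as CG33461 beside CG30087 within 10 kb. The difference between the distance classes was not tested, and nothing is read from it.

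By the number of expressing strains, flanking genes of members expressed in 1 strain were called higher in 19 of 54 pairs (35.2%, against 11.7%) and lower in 2 (3.70%, against 9.35%). With 1 library left out, 13 to 18 of these were higher and 1 to 4 lower. The count of lower calls was 4 without replicate 2 of MU12, 3 without replicate 2 of MU14, and 1 without any single library of MU10 or MU17. Among the 19 were genes that reached the filter on low counts through their high side. CG18284, with 187 of its 216 counts in MU12, was counted beside both CG31872 and CG7329. CG33461 held 316 of its 376 counts in replicate 1 of MU17. Such calls support nothing, and the shares were not computed again without them. Flanking genes of members expressed in 4 strains were called higher in 26 of 134 pairs (19.4%, against 9.74%) and lower in 25 (18.7%, against 11.03%), the last with 14 without replicate 2 of MU26. For 51 members at least 1 flanking gene was called higher, and for 7 members both were (CG14695, CG17109, CG33468, CG42681, CG42814, CG4945 and CG8997). No such count was made for other genes, so nothing is read from these. The exons of CG14695 overlap those of its flanking gene Sodh2, and those of CG4945 overlap its flanking gene RpS15. The difference between members grouped by number of expressing strains was not tested, and a few flanking genes serve more than 1 member.

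**Figure D5:**
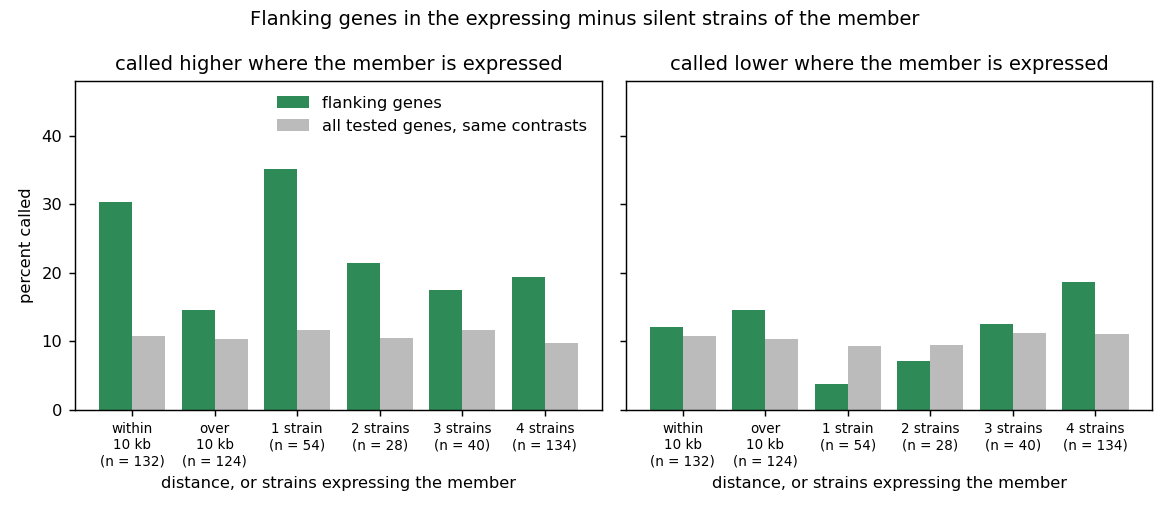
Percent of flanking genes (green) and of all tested genes in the same contrasts (grey) called higher (left panel) or lower (right panel) in the strains that express the member, by distance from the member and by the number of strains that express it. Within 10 kb, 30.3% of flanking genes were called higher against 10.8% of all tested genes, and beyond 10 kb 14.5% were, against 10.3%. The green bars include calls on genes that reached the filter on low counts through their high side.

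The 5 called flanking genes with the largest differences were at or below 1.01 CPM in every library of the silent strains, so their differences are given as descriptions. The largest was that of DAT, the dopamine transporter gene beside CG4945, whose start lies 7456 bases away. DAT held 169, 139 and 212 CPM in MU14, against 0.262 to 1.01 CPM in the other strains, a log2 difference of 8.45. Both genes were thus high in the 3 MU14 libraries and nowhere else.

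nompC, a mechanotransduction channel gene beside Acsf2, held 0.602 to 3.09 CPM in MU10, MU12, MU14 and MU17, against 0.0275 and 0.0289 CPM in MU26 (log2 difference 5.23). It was higher in all 9 libraries of the strains that express Acsf2. CG32284, beside CG14957, held 0.173 to 1.75 CPM in MU12, MU14 and MU17, against 0 to 0.0550 CPM in MU10 and MU26 (log2 difference 6.14). CG14957 itself held 2.66 to 9.27 CPM in the same 3 strains, against 0.0559 to 0.242 CPM in MU10 and MU26. The sides did not overlap in either gene.

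CG33461, between the members CG33460 and CG33462, held 7.65 and 0.320 CPM in MU17, against 0 to 0.301 CPM in the strains silent for CG30087 (log2 difference 5.98). TotX, a Turandot stress peptide gene within the span of Grik, held 1.45 and 0.951 CPM in MU10 and 2.95 CPM and 0 counts in MU17, against 0 to 0.0261 CPM in the other strains (log2 difference 7.83). Replicate 1 of MU17 held 316 of the 376 counts of CG33461 and 122 of the 230 counts of TotX. Without it neither gene passed the filter on low counts.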

How the data were processed

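RNA-seq libraries of polyadenylated RNA were sequenced in paired-end mode. According to the methods of the study, the authors mapped read pairs to a FlyBase reference transcriptome with NextGenMap, discarded pairs that mapped to different genes or transcripts, and summed the reads of all transcripts of a gene. The deposited values are raw gene-level counts, with a gene length column that was used only to give levels per kilobase. The authors' counts do not show whether a low value reflects little RNA or reads that failed to map to that single reference, and no genome sequence of these strains was used here. The sources used here do not say that counting used strand. No per-sample column of the table was left out.

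CPM was computed from the column total. Gene symbols and positions came from annotation BDGP6.54 by FlyBase ID (13843 of 13931 genes) or CG number (75), and 13 genes were not matched. The 8415 genes that averaged 15 or more counts over the libraries, the filter of the study, were fitted with edgeR 4.0.16 in R 4.3.3 (trimmed mean of M values, quasi-likelihood F test, 1 coefficient per strain, Benjamini-Hochberg adjustment over all tested genes, threshold 0.05). Each of the 15 ways to split the 5 strains into expressing and silent sides was a contrast of strain means. DESeq2 1.42.0, other scalings, limits and filters, a replicate block and each library left out in turn were alternatives. In simulated counts for MU17 against the other strains, with 8415 genes, the test recovered 69 of 100 seeded 2-fold changes and 100 of 100 seeded 4-fold changes, and 11 of 180 calls were false. The simulation gave every gene the same coefficient of variation (0.225) and seeded changes only in genes above a minimum mean count. The real MU17 replicates differed more than those of any other strain, so these rates do not carry over to the contrasts reported. Counts of replicates differed by more than sampling noise (chi-square per degree of freedom 49.5 to 287), so each was kept as a library of its own. Intervals and floors cover counting error only.

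The members, lists and tests were chosen with earlier results of these data known. The genes named are, for each number of expressing strains, those with the highest strain means, members with 0 counts in a strain, consecutive members, members with a gene name, the genes nearest each limit, and the 5 called flanking genes with the largest differences. CG10738, CG6168, CG15894, CG15543, CG33468, CG17390, CG14957, CG13510, PGRP-SC1b and the members more than 4-fold apart in MU17 were named after their values were seen, as were the role groups and the clusters within 10 kb.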

Additional observations from a re-analysis of the deposited data

How the results depend on the processing

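The set of members moved with its limits. There were 85 members with a limit for absence of 0.25 CPM, 207 with 1 CPM, 238 with a limit for presence of 2.5 CPM and 65 with 10 CPM, against 130 as reported. Factors of the trimmed mean of M values gave 116 members, 115 of them among the 130, and size factors of the RLE method gave 115. With strains called expressing at 1 CPM, 43 members were expressed in 1 strain, 22 in 2 strains and 36 in 4 strains. At 5 CPM the counts were 95 in 1 strain, 7 in 3 strains and 12 in 4 strains. Leaving out 1 library at a time gave 115 to 141 members. Of these, 24 to 38 were expressed in 1 strain and 9 to 18 in 2 strains. Another 18 to 26 were expressed in 3 strains and 61 to 76 in 4 strains. Of the 130 reported members, 67 to 78 then had every remaining library on the side of its strain, against 65 with all libraries. A strain left with 1 library meets this by definition, which favours a rise, so nothing is read from it. Leaving out 1 library also gave 3133 to 4008 genes that differed among strains, against 4063. Flanking genes called higher numbered 41 to 58 and those called lower 20 to 32, against 58 and 34. Among flanking genes that averaged at least 100 counts, a limit chosen after seeing the data, 41 were higher and 28 lower. Flanking genes called lower numbered 20 without a filter on low counts and 16 within 10 kb.

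Deviations of same-numbered replicates correlated from -0.303 to 0.268, with 7 of 20 pairs over 0.1. The 20 pairs are not independent, since 2 libraries of a strain deviate equally in opposite directions. MU26 correlated at 0.268 with MU10, 0.248 with MU12 and -0.251 with MU17, and at 0.227 and -0.0259 with MU14. The numbers were not taken to pair libraries, and these correlations do not settle whether they do. With the replicate block, 3131 genes differed among strains, and 48 flanking genes were called higher and 27 lower. TotX was not called with the block (log2 difference 7.96, edgeR adjusted p = 0.062) or with any 1 of the 5 libraries of MU10 and MU14 left out (0.051 to 0.073). The excess of flanking genes called lower over all tested genes (13.3% against 10.5%) turned into a deficit without replicate 2 of MU26 (7.81% against 8.11%). No fitted difference of a named flanking gene changed sign under the alternatives that gave it a value. The planned search of promoter motifs and protein likeness was not run. Levels below 0.5 CPM rest on fewer than 25 counts in a library. Any order among them, such as that given for brp, nSyb and repo, is uncertain.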
